A study of Mus musculus with 16 samples.

Results

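The genes described here are Lin28a, whose protein blocks maturation of the let-7 microRNAs, and 6 genes known as targets of let-7: Trim71, Hmga1, Hmga2, Igf2bp1, Igf2bp2 and Igf2bp3. They were found by target name, with Lin28a under its older name LIN28 and 1 Igf2bp1 probe under the clone name D030026A21RIK, and make up 7 of the 32089 genes and 21 of the 46643 probes on the array. All 7 were among the 15642 genes tested, that is, genes whose brightest probe was detected on at least 2 of 16 arrays.

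The RNA came from 8 groups of mouse cells with 2 arrays each, which the labels call biological replicates. There were 5 lines of induced pluripotent stem (iPS) cells, named OSCE #8, OSCE #13, OSE #T8, OSE #T9 and OSCK. By common use O is Oct4, the product of Pou5f1, S is Sox2, C is c-Myc, K is Klf4 and E is Esrrb, though the labels do not spell these letters out. Mouse embryonic fibroblasts (MEFs) formed 2 groups, Actin-GFP MEFs with a green fluorescent protein transgene driven by an Actin promoter and Pou5f1-GFP MEFs with the same reporter under the Pou5f1 promoter. R1 embryonic stem (ES) cells were the remaining group. The MEFs received 15% fetal bovine serum, and the iPS and ES cells 15% serum and 1000 units per ml of LIF, the cytokine used to hold off their differentiation. iPS and ES cells grew on feeders, MEFs stopped from dividing with mitomycin C, so their RNA can hold fibroblast RNA. No age, treatment or further genotype is given for any group, each iPS line stands for itself, and ES cells are represented by the R1 line.

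LIN28 proteins bind the precursors of let-7 and, with a uridylating enzyme, send them to decay, so that mature let-7 is scarce in ES cells and accumulates on differentiation. Mature let-7 lowers messenger RNAs that carry sites matching its seed, the bases near its 5′ end that lead target recognition. Lin28a itself carries such sites, as do Trim71, a ubiquitin ligase and RNA-binding protein of embryonic cells, Hmga1 and Hmga2, which bend AT-rich DNA in chromatin, and Igf2bp1, Igf2bp2 and Igf2bp3, which bind messenger RNAs and affect their stability, translation and place in the cell. These oncofetal proteins are high in early embryos and in many tumours. No target name on the array held let-7, so the microRNA itself was not measured.

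The family is shown here because the members' common regulator is defined by its sequence. RefSeq (GRCm38.p6) lists 11 mature names of the mouse let-7 family from 13 loci, given here as RNA from 5′ to 3′ with the seed (bases 2 to 8) in capitals.
let-7a-5p: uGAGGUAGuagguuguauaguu
let-7b-5p: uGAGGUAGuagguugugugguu
let-7c-5p: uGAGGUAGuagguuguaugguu
let-7d-5p: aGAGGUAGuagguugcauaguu
let-7e-5p: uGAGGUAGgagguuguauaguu
let-7f-5p: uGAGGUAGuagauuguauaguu
let-7g-5p: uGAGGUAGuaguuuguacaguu
let-7i-5p: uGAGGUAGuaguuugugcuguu
let-7k: uGAGGUAGgagguugugug
miR-98-5p: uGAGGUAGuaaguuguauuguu
let-7j: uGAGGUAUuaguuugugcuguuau

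The seed GAGGUAG was shared by 10 of the 11 names and let-7j had GAGGUAU. Among all 1679 mature mouse names in the table, miR-1961 was the only one outside the family with the shared seed. Against let-7a, with positions counted from 1 at the 5′ end, let-7c differed by A19G, let-7f by G12A, and let-7d by U1A and U16C, all outside the seed. The let-7a, let-7f and let-7d listed here lie close together on the minus strand of GRCm38.p6 chromosome 13, at chr13:48538239-48538260, chr13:48537889-48537910 and chr13:48536078-48536099. On chromosome 15, let-7c at chr15:85706616-85706637 and let-7b at chr15:85707325-85707346 lie near each other on the plus strand. Sites in the members' transcripts were not analysed here.

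All 16 arrays measured like numbers of probes: between 35.5% and 38.8% of probes were detected (detection p under 0.01), with a median of 34 to 38 beads per probe. The 2 arrays of a group correlated across probes at r from 0.989 to 0.995. Levels are given as log2 of background-corrected, quantile-normalized signal, and the dimmest detected probe of each array lay at 4.89 to 5.05. OSCE #8, OSCK, both MEF types and ES cells were hybridized on the same 2 slides, and OSCE #13, OSE #T8 and OSE #T9 on 2 other slides, so that slide and group cannot be told apart in a direct comparison between these sets. Summed normalized signal of 9 pluripotency markers was 14354 and 14765 in OSCE #8, 18800 to 28222 in the other 4 lines, 206 to 226 in MEFs and 26857 to 27188 in ES cells. In OSCE #8, 6 of these 9 markers were called lower than in ES cells (limma adjusted p under 0.05, median -0.82). In that comparison 24.2% of all genes were called in either direction. Esrrb averaged 9.84 in OSCE #8 against 11.82 in ES cells. Meanwhile the sum of 15 fibroblast markers was 9518 to 12627 in the lines, 63686 to 70347 in MEFs and 8396 to 8554 in ES cells. Of the defining pluripotency markers, Esrrb was detected on 0 of 4 MEF arrays, Pou5f1 on 1 and Nanog on all 4, where it averaged 5.06 in Actin-GFP MEFs and 5.25 in Pou5f1-GFP MEFs against 11.93 in ES cells.

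Lin28a, Trim71, Hmga1 and Igf2bp1 were lower in MEFs than in ES cells, Igf2bp2 and Igf2bp3 were higher, and Hmga2 did not pass the test. Calls rest on an adjusted p under 0.05 in a limma fit over all genes tested. By that rule 6 of the 7 members were called in MEFs against ES cells, where 61.0% of all 15642 genes were called (30.7% higher and 30.3% lower). The median log2 difference was -2.30 over the members, also with Lin28a and Trim71 at their bounds below, and -0.02 over all genes. In the 5 lines against MEFs, where 70.0% of all genes were called (35.0% higher and 35.0% lower), 4 members were higher, 1 was lower and 2 were not called. In the 5 lines against ES cells 3 members were called, 1 higher and 2 lower, against a background of 22.0% (10.8% higher and 11.2% lower). These 3 comparisons share arrays, so their values stand side by side and are not independent. Their fit takes its spread from the 2 arrays of each group, so differences between lines do not enter pooled standard errors and intervals. With 1 mean per line or MEF type, 0 members and 115 of all genes were called in the 5 lines against ES cells. In RNA from whole cultures, fewer cells that express a gene and less RNA per cell cannot be told apart.

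**Figure D1:**
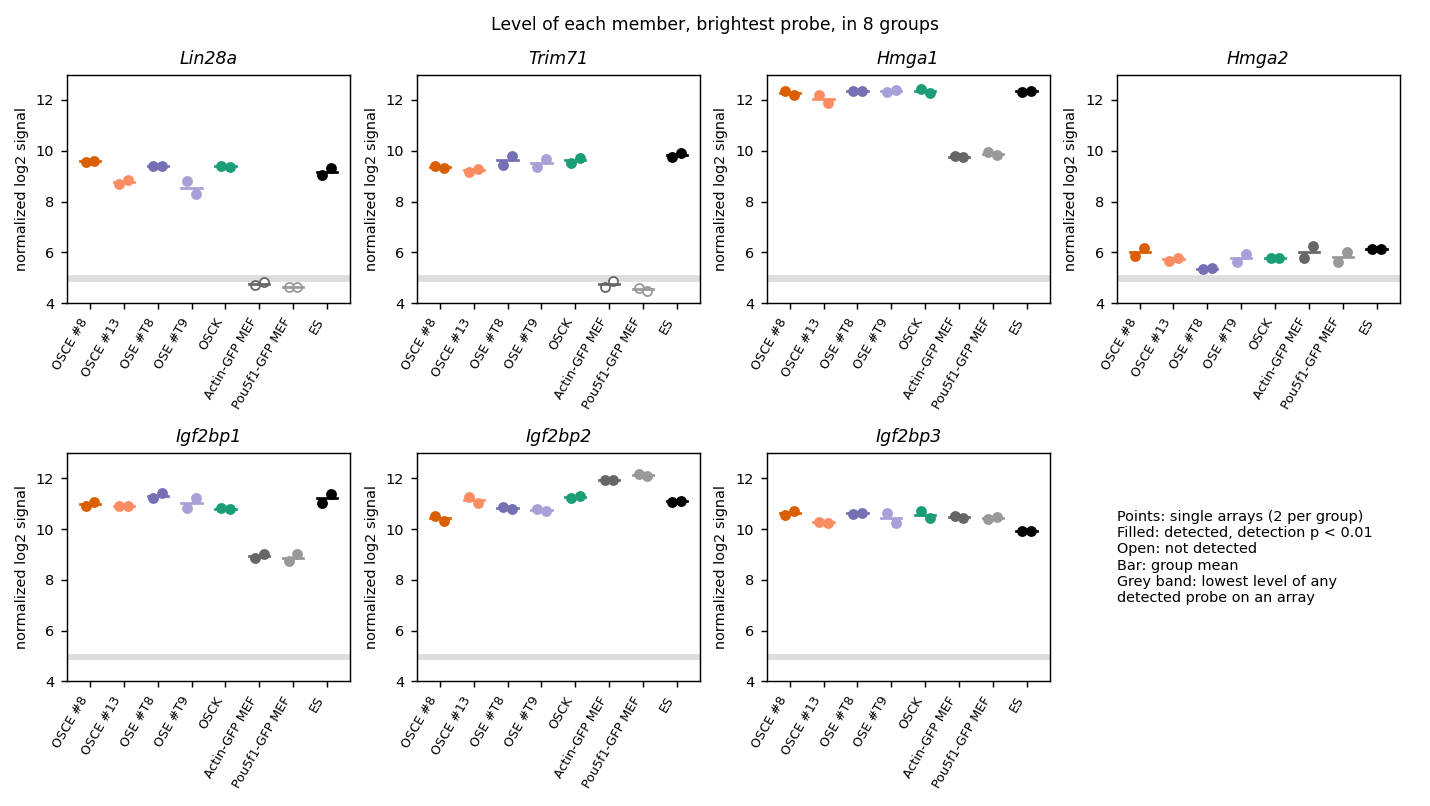
Normalized log2 signal (vertical axis) of the brightest probe of each of the 7 members on every array, by group (horizontal axis). Points are arrays, filled where detected and open where not, bars are means of 2 arrays, and the grey band spans the lowest level of any detected probe, 4.89 to 5.05. Lin28a and Trim71 lie at or under that band in both MEF types, Hmga1 and Igf2bp1 are lower there but detected, and Igf2bp2 is highest there.

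Lin28a, the blocker of let-7 maturation, was detected in every iPS line and in ES cells and was not detected on any MEF array. Its brightest probe read 9.58 and 9.61 in OSCE #8, 8.68 and 8.86 in OSCE #13, 9.41 and 9.40 in OSE #T8, 8.82 and 8.28 in OSE #T9 and 9.39 and 9.38 in OSCK. It read 4.71 and 4.82 in Actin-GFP MEFs, 4.64 and 4.62 in Pou5f1-GFP MEFs, and 9.06 and 9.31 in ES cells. All MEF arrays lay below all others, and the lines lay on both sides of ES cells. Lin28a was at least 18.7-fold higher in the 5 lines than in MEFs (adjusted p = 4.22e-15) and at least 19.3-fold lower in MEFs than in ES cells (adjusted p = 6.38e-13). Such a bound sets the undetected group at its own level or, where that is lower, at the lowest level of a detected probe on the array. Against ES cells, the 5 lines together gave -0.04 (95% confidence interval -0.29 to 0.21, adjusted p = 0.872).

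The lines differed among themselves in Lin28a by its brightest probe, with 6 of 10 pairs called, against a background set by the pair. OSCE #8 with OSCE #13, OSE #T8, OSE #T9 and OSCK had 18.4%, 22.4%, 20.3% and 17.4% of all genes called, OSCE #13 with OSE #T8, OSE #T9 and OSCK 17.4%, 19.6% and 11.7%, and OSCK with OSE #T8 and OSE #T9 12.7% and 15.6%. OSCE #8 averaged 9.59, OSE #T8 9.40, OSCK 9.38, ES cells 9.18, OSCE #13 8.77 and OSE #T9 8.55, and no neighbours in this order differed by the test. OSE #T8 exceeded OSE #T9 by 0.85 ± 0.15 (SE, adjusted p = 0.00194), a pair on the same slides whose names share all letters of the factors, where 12.5% of all genes were called. By the brightest probe, OSE #T9 was the only line called against ES cells, at -0.63 ± 0.15 (adjusted p = 0.00834, background 20.3%). That call was lost without its second array (-0.36, adjusted p = 0.0982) or without the second ES array (-0.50, adjusted p = 0.0962). OSCE #8 against ES cells was 0.41 ± 0.15 (adjusted p = 0.0636, and 0.0442 with slide as a block), and OSCE #13 was at -0.41 ± 0.15 (adjusted p = 0.0787, and 0.017 without the first OSE #T9 array).

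The 3 Lin28a probes told MEFs from the rest alike and disagreed on the lines. In a fit over all probes, each was lower in MEFs than in ES cells, with an adjusted p of 1.43e-06 or less, and none was detected on any MEF array, so the sizes are bounded by the floor. In order of brightness, the 5 lines minus ES cells gave -0.04 ± 0.11 (adjusted p = 0.94), 0.17 ± 0.11 (adjusted p = 0.506) and 0.61 ± 0.11 (adjusted p = 0.00633). In OSE #T9 the brightest probe was lower than in ES cells (-0.63, adjusted p = 0.0234) and the dimmest was higher (0.60, adjusted p = 0.0337). The dimmest probe read 6.57 and 6.69 in OSE #T9 and 5.95 and 6.12 in ES cells, so those arrays did not overlap. Between lines, it averaged 6.74 in OSE #T8, 6.63 in OSE #T9 and 6.51 in OSCK, where the middle probe averaged 7.44, 6.95 and 7.81. OSE #T9 thus lay above OSCK by the dimmest probe and below it by the others. Which transcript each probe reads was not analysed here. The direction of Lin28a between the lines and ES cells therefore goes with the probe, whereas its difference from MEFs had the same direction by all 3. With the mean of all probes of a gene in place of the brightest, the 5 lines minus ES cells turned to 0.25 (adjusted p = 0.0286). By that mean Lin28a was higher than in ES cells in OSCE #8 (0.71, adjusted p = 0.000146), OSE #T8 (0.38, adjusted p = 0.0127) and OSCK (0.42, adjusted p = 0.00828), and OSE #T9 was at -0.10 (adjusted p = 0.532).

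Lin28b, the close relative of Lin28a that also blocks let-7 and is itself a target, was measured by 4 probes, of which 1 was detected. That probe read 7.30 and 8.15 in OSCE #8, 6.44 and 6.77 in OSCE #13, 6.87 and 6.94 in OSE #T8, 6.17 and 7.43 in OSE #T9 and 6.88 and 7.22 in OSCK. It was not detected on any MEF array and read 5.81 and 6.39 in ES cells. The spread within a line was wide, up to 0.90 (SD of 2 arrays) in OSE #T9. Lin28b was at least 2.27-fold lower in MEFs than in ES cells (adjusted p = 5.65e-05). It was higher in the 5 lines than in ES cells by 0.92 ± 0.26 (adjusted p = 0.0179) and in OSCE #8 by 1.63 ± 0.33 (adjusted p = 0.00207).

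Trim71, the ubiquitin ligase known as LIN41 in the worm, followed Lin28a in being undetected in MEFs. Its brightest probe read 9.42 and 9.32 in OSCE #8, 9.16 and 9.30 in OSCE #13, 9.45 and 9.80 in OSE #T8, 9.37 and 9.68 in OSE #T9 and 9.53 and 9.72 in OSCK. It read 4.66 and 4.85 in Actin-GFP MEFs, 4.61 and 4.49 in Pou5f1-GFP MEFs, and 9.76 and 9.92 in ES cells. The lines clustered within 0.40 of each other as means and none of their 10 pairs was called. Trim71 was at least 23.6-fold higher in the 5 lines than in MEFs (adjusted p = 1.22e-15) and at least 30.5-fold lower in MEFs than in ES cells (adjusted p = 1.08e-13).

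Every line averaged below ES cells in Trim71, by a little. The 5 lines minus ES cells gave -0.37 ± 0.11 (adjusted p = 0.0311), and the highest line array, in OSE #T8, passed the lower of the ES arrays. Against ES cells Trim71 was called in OSCE #8 (-0.47 ± 0.15, adjusted p = 0.0297, background 24.2%) and in OSCE #13 (-0.62 ± 0.15, adjusted p = 0.00802, background 19.4%). The other lines lay between -0.32 and -0.22 by the brightest probe and were not called. A second detected probe gave -0.46 ± 0.11 for the 5 lines (adjusted p = 0.0196 over all probes), against an adjusted p of 0.065 for the brightest probe in the same fit. In that fit the second probe was called lower in OSCE #13 (-0.57), OSE #T8 (-0.56) and OSE #T9 (-0.65). It was not called in OSCE #8 (-0.44) or OSCK (-0.11), and the brightest probe was not called in OSCE #8 there. Which lines were called therefore goes with the probe. The call over the 5 lines was lost with 1 ES array left out (adjusted p = 0.0857 and 0.292), with 1 mean per line (adjusted p = 0.706), without the line OSCE #13 (adjusted p = 0.0767) or OSCE #8 (adjusted p = 0.0507), and without the first array of OSCE #13 (adjusted p = 0.0506) or OSCK (adjusted p = 0.0509). The call in OSCE #8 was lost without any 1 of its own or the ES arrays (adjusted p from 0.0553 to 0.175), and that in OSCE #13 without its first array (adjusted p = 0.0728) or the second ES array (adjusted p = 0.0764).

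Hmga1, an architectural chromatin protein of growing cells, was bright everywhere and lower in MEFs. Its only probe read 12.37 and 12.19 in OSCE #8, 12.21 and 11.89 in OSCE #13, 12.36 on both arrays of OSE #T8, 12.33 and 12.39 in OSE #T9 and 12.41 and 12.26 in OSCK. It read 9.78 and 9.74 in Actin-GFP MEFs, 9.94 and 9.84 in Pou5f1-GFP MEFs, and 12.31 and 12.36 in ES cells. Hmga1 was 5.47-fold higher in the 5 lines than in MEFs (2.45 ± 0.07, adjusted p = 2.69e-13) and 5.69-fold lower in MEFs than in ES cells (-2.51 ± 0.11, adjusted p = 3.50e-11). No line was called against ES cells, with differences from -0.28 (OSCE #13) to 0.03, and the 5 lines together gave -0.06 (95% confidence interval -0.26 to 0.15).

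Hmga2, the paralogue of Hmga1 that is high in fetal mesenchyme, gave signal near the floor of detection in all groups. Which transcripts its 4 probes read was not analysed here, so a dim signal cannot be taken as a low RNA level. Of these probes 1 was detected, and on all 16 arrays. It read 5.87 and 6.16 in OSCE #8, 5.68 and 5.76 in OSCE #13, 5.33 and 5.39 in OSE #T8, 5.64 and 5.93 in OSE #T9 and 5.76 and 5.79 in OSCK. It read 5.77 and 6.24 in Actin-GFP MEFs, 5.64 and 5.995 in Pou5f1-GFP MEFs, and 6.14 and 6.13 in ES cells. The MEF arrays lay among those of the lines and ES cells, and MEFs minus ES cells was -0.22 (95% confidence interval -0.53 to 0.08, adjusted p = 0.198). OSE #T8 was lower than ES cells by -0.78 ± 0.17 (adjusted p = 0.00345, background 20.7%) and was the lowest group. The 5 lines minus ES cells gave -0.40 ± 0.13 (adjusted p = 0.0353). This call was lost without OSE #T8 (adjusted p = 0.113), without 1 ES array (adjusted p = 0.189 and 0.180) with 1 mean per line (adjusted p = 0.752), and without the first array of OSCE #8 (adjusted p = 0.0554), OSCE #13 (adjusted p = 0.0535), OSE #T8 (adjusted p = 0.0522) or OSCK (adjusted p = 0.0514). MEFs minus ES cells was called without the second Actin-GFP MEF array (-0.34, adjusted p = 0.0459). The 5 lines minus MEFs, -0.18 ± 0.10 (adjusted p = 0.116), was called without the line OSCE #8 (adjusted p = 0.0391) and with slide as a block (adjusted p = 0.0442). That block does not take out differences between the sets of slides. The difference was -0.30 without the first array of Actin-GFP MEFs and -0.27 without the first array of Pou5f1-GFP MEFs.

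**Figure D2:**
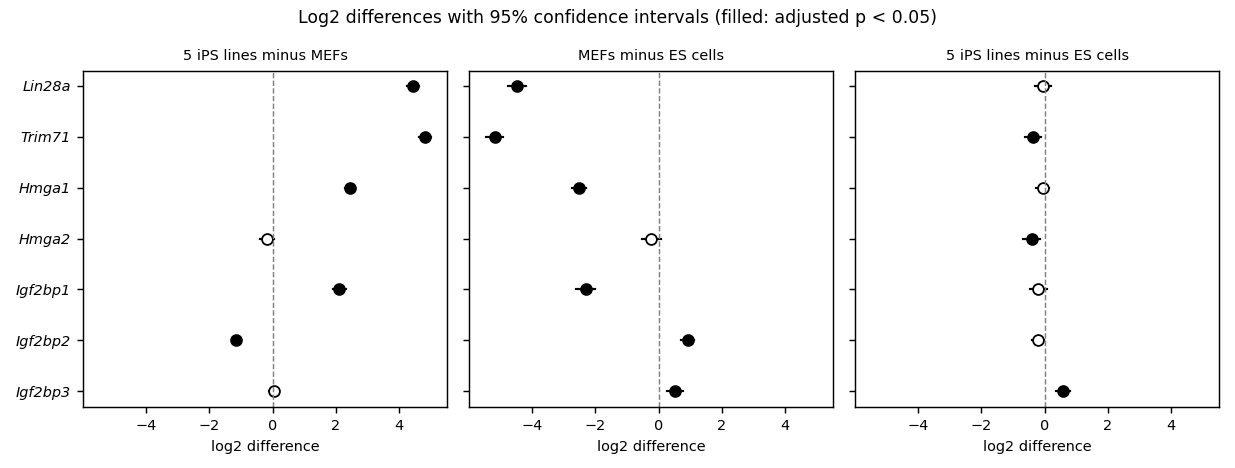
Log2 difference (horizontal axis) of each member in the 5 iPS lines minus MEFs, MEFs minus ES cells and the 5 lines minus ES cells. Points are limma estimates, lines are 95% confidence intervals from the spread between arrays of a group, and filled points have an adjusted p under 0.05. Hmga1 and Igf2bp1 differ by 2.11 to 2.51 between MEFs and the other cells, Lin28a and Trim71 are floor-limited in MEFs and lie farther out, and all 7 members lie within 0.57 of 0 between lines and ES cells.

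The 3 Igf2bp genes took 3 different courses. Igf2bp1 was lower in MEFs, Igf2bp2 was higher in MEFs, and Igf2bp3 read lowest in ES cells. Each Igf2bp protein binds RNA through domains shared by the family.

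The brightest probe of Igf2bp1 read 10.91 and 11.07 in OSCE #8, 10.90 on both arrays of OSCE #13, 11.21 and 11.43 in OSE #T8, 10.84 and 11.24 in OSE #T9 and 10.83 and 10.78 in OSCK. It read 8.85 and 9.02 in Actin-GFP MEFs, 8.73 and 9.002 in Pou5f1-GFP MEFs, and 11.02 and 11.39 in ES cells. Igf2bp1 was 4.31-fold higher in the 5 lines than in MEFs (2.11 ± 0.09, adjusted p = 2.90e-11) and 4.94-fold lower in MEFs than in ES cells (-2.30 ± 0.14, adjusted p = 1.66e-09). No line was called against ES cells. OSCK was the lowest of the lines, at -0.40 ± 0.16 (adjusted p = 0.11, and 0.0321 with slide as a block, with -0.19 on slide 1 and -0.61 on slide 3).

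All 3 detected Igf2bp1 probes were lower in MEFs than in ES cells, by -2.30 and -3.08 for the 2 that were detected in MEFs, while the third was not. The probe under the clone name read 9.98 and 10.21 in OSCE #13, 10.60 to 10.94 in the other 4 lines, and 10.68 and 10.72 in ES cells. It was lower in OSCE #13 than in ES cells by -0.60 ± 0.11 (adjusted p = 0.00723 over all probes), where the brightest probe gave -0.31 and the third 0.18 (adjusted p = 0.637), neither called.

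Igf2bp2 was higher in MEFs than in any iPS line or ES cells, the reverse of Igf2bp1. Its only probe read 10.52 and 10.32 in OSCE #8, 11.25 and 11.04 in OSCE #13, 10.86 and 10.79 in OSE #T8, 10.81 and 10.73 in OSE #T9 and 11.21 and 11.29 in OSCK. It read 11.92 and 11.93 in Actin-GFP MEFs, 12.16 and 12.08 in Pou5f1-GFP MEFs, and 11.08 and 11.12 in ES cells. MEF arrays did not overlap with the others. Igf2bp2 was 2.21-fold lower in the 5 lines than in MEFs (-1.14 ± 0.07, adjusted p = 6.47e-10) and 1.90-fold higher in MEFs than in ES cells (0.93 ± 0.10, adjusted p = 9.53e-07). With each line and MEF type reduced to 1 mean, MEFs against ES cells had an adjusted p of 0.0602.

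Of the 10 pairs of lines 7 were called for Igf2bp2, more than for any other member, where 11.7% to 22.4% of all genes were called per pair. The line means of Igf2bp2 nevertheless spread less (SD 0.33 over 5 lines) than those of Lin28a (SD 0.45). OSCK averaged 11.25, OSCE #13 11.14, ES cells 11.10, OSE #T8 10.83, OSE #T9 10.77 and OSCE #8 10.42. OSCE #8 lay below OSE #T9, its neighbour in this order, by -0.35 ± 0.11 (adjusted p = 0.0429). For all lines together the difference from ES cells was -0.22 ± 0.09 (adjusted p = 0.0977), called without OSCE #13 (adjusted p = 0.0347) or OSCK (adjusted p = 0.0216). OSCE #8 differed from ES cells by -0.68 ± 0.11 (adjusted p = 0.000409), with -0.56 on slide 1 and -0.80 on slide 3. OSCE #8 was also lower than OSCK by -0.83 ± 0.11 (adjusted p = 0.000106), with -0.69 on slide 1 and -0.97 on slide 3. Igf2bp2 was the only member called between OSCE #8 and OSCK, where 17.4% of all genes were called. Summed fibroblast marker signal was 9518 and 9696 in OSCE #8, the lowest of the lines, 12585 and 12627 in OSCK, and 8396 and 8554 in ES cells. The part of fibroblast RNA in these differences was not tested.

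Igf2bp3, best known from placenta and fetal tissue, was the only member higher in the 5 lines than in ES cells. The brightest of its 5 probes read 10.57 and 10.72 in OSCE #8, 10.28 and 10.25 in OSCE #13, 10.60 and 10.64 in OSE #T8, 10.63 and 10.25 in OSE #T9 and 10.71 and 10.43 in OSCK. It read 10.53 and 10.43 in Actin-GFP MEFs, 10.41 and 10.47 in Pou5f1-GFP MEFs, and 9.93 and 9.94 in ES cells. Both ES arrays lay below all 10 line arrays and all 4 MEF arrays. Igf2bp3 was 1.49-fold higher in the 5 lines than in ES cells (0.57 ± 0.10, adjusted p = 0.000928) and 1.44-fold higher in MEFs than in ES cells (0.53 ± 0.12, adjusted p = 0.00113). The 5 lines minus MEFs gave 0.05 (95% confidence interval -0.12 to 0.22). With lines and MEF types as replicates, the adjusted p was 0.305 for the 5 lines and 0.0659 for MEFs, both against ES cells.

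By line, Igf2bp3 was higher than in ES cells in OSCE #8 (0.71 ± 0.13, adjusted p = 0.00124), OSE #T8 (0.69 ± 0.13, adjusted p = 0.00183), OSCK (0.63 ± 0.13, adjusted p = 0.0041, background 16.9%) and OSE #T9 (0.50 ± 0.13, adjusted p = 0.0155). OSCE #13 was at 0.33 ± 0.13 and not called (adjusted p = 0.107), but was called without either OSE #T9 array (adjusted p = 0.0494 and 0.0487), which changes the shared estimate of spread. Within slides, OSCE #8 minus ES cells was 0.64 and 0.78, and OSCK minus ES cells 0.77 and 0.49. No pair of lines was called. Leaving out either OSE #T9 array 1 (adjusted p = 0.126) or 1 ES array (adjusted p = 0.0717 and 0.0714) ended the call in OSE #T9, as did scaling to the 75th percentile (0.37, adjusted p = 0.0985), and leaving out OSCK array 1 ended that in OSCK (adjusted p = 0.0654).

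All 5 Igf2bp3 probes were detected on all 16 arrays. Their differences between the 5 lines and ES cells were 0.28 to 0.58 for these probes, with 3 called higher, and MEFs minus ES cells gave 0.30 to 0.81, also with 3 called higher. Between the lines and MEFs the probes parted: the third in brightness was higher in the lines (0.28 ± 0.09, adjusted p = 0.0439) and the fourth lower (-0.54 ± 0.07, adjusted p = 5.86e-05). Summed fibroblast marker signal was also higher in every line than in ES cells. Of those 15 markers, 8 were called higher in the 5 lines and 7 were not called, where 22.0% of all genes were called. In OSCE #8 alone 3 were higher, 1 lower and 11 not called, where 24.2% of all genes were called. The part of fibroblast RNA in the Igf2bp3 difference was not tested.

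**Figure D3:**
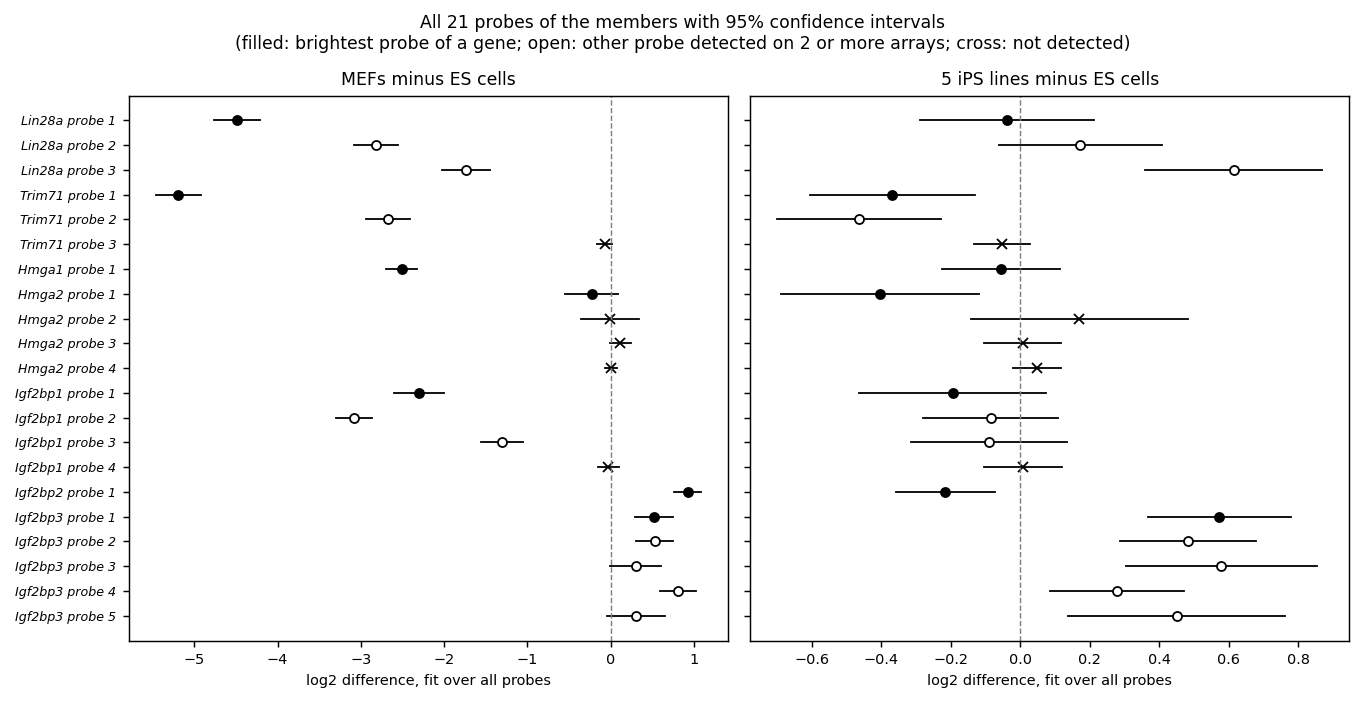
Log2 difference (horizontal axis) of all 21 probes of the members in MEFs minus ES cells (left) and the 5 lines minus ES cells (right), from a fit over all probes. Points are estimates with 95% confidence intervals, filled for the brightest probe of a gene, open for other detected probes, and crosses for undetected ones. Detected probes of Lin28a, Trim71 and Igf2bp1 all lie left of 0 in MEFs, and the 3 Lin28a probes spread from -0.04 to 0.61 in the lines.

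Of the whole set, OSCE #8 had 3 members called against ES cells, OSE #T8 and OSE #T9 had 2 each, and OSCK and OSCE #13 had 1 each. The background in these comparisons ran from 16.9% to 24.2% of all genes. OSCE #13, OSE #T8 and OSE #T9 were on other slides than ES cells, so for these lines slide and group cannot be told apart. On the slides that held ES cells, OSCE #8 and OSCK together minus ES cells gave 0.71 on slide 1 and 0.63 on slide 3 for Igf2bp3, -0.29 and -0.40 for Trim71, and -0.32 and -0.16 for Hmga2. OSE lines against OSCE lines, which compares lines named without and with the letter C, had 0 members called by limma, against 23.3% of all genes. Trim71 stood at 0.28 ± 0.10 by its brightest probe (adjusted p = 0.0701, and 0.0205 with slide as a block). Its other detected probe gave -0.10 and was not called. Hmga2 stood at -0.30 ± 0.12 (adjusted p = 0.0863, and 0.024 with slide as a block). That block works within each set of slides, so slide and line cannot be told apart between OSCE #8 and the OSE lines. Actin-GFP MEFs against Pou5f1-GFP MEFs also had 0 members called, against 11.5% of all genes, with differences from -0.19 (Igf2bp2) to 0.20 (Trim71). Summed macrophage marker signal was 8074 and 8426 in Actin-GFP MEFs and 2054 and 2063 in Pou5f1-GFP MEFs.

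**Figure D4:**
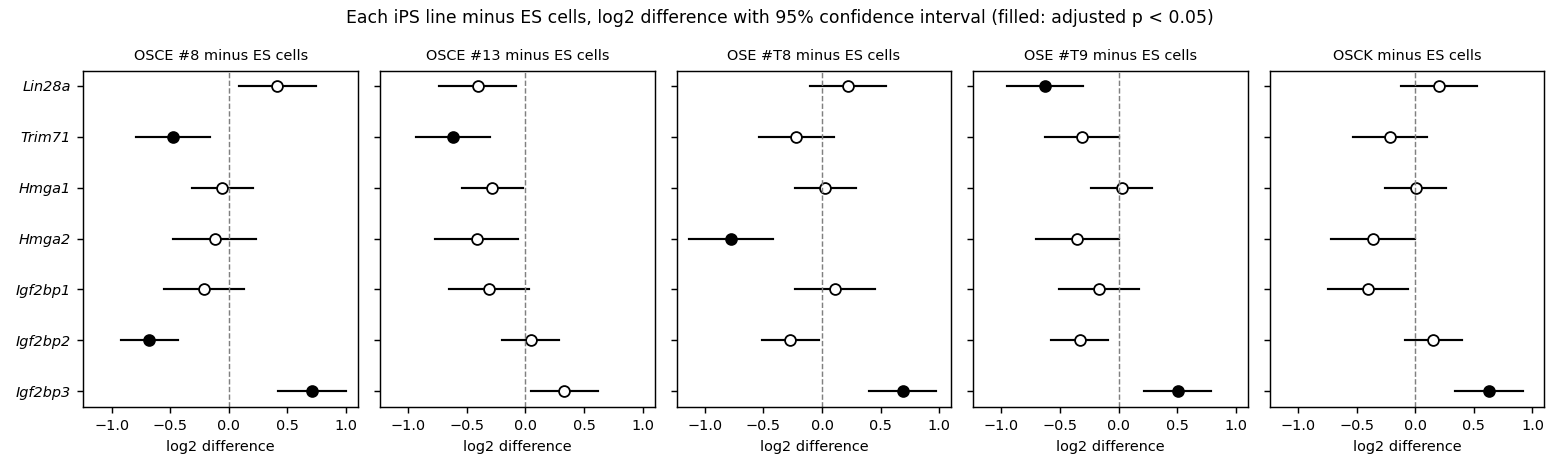
Log2 difference from ES cells (horizontal axis) of each member in each of the 5 iPS lines, with 95% confidence intervals. Filled points have an adjusted p under 0.05. Igf2bp3 lies right of 0 in all 5 lines and is called in 4, and Igf2bp2 is called in OSCE #8 (-0.68).

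The members fell into patterns across the 8 groups, described here without a test because the MEF groups dominate such correlations. Lin28a, Trim71, Hmga1 and Igf2bp1 correlated with one another at r from 0.977 to 0.997 over 8 group means. Igf2bp2 ran against them, at r from -0.90 to -0.88. Igf2bp3 was near 0 with all of these, at r from -0.14 to -0.03. Within the 5 lines alone, r between Lin28a and Trim71 was 0.28 and between Trim71 and Hmga1 0.90, over 5 means.

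Genes with group means like those of a member were sought among the genes tested, with predicted and clone names passed over. Most like Lin28a were Cnot9 (r = 0.999), a subunit of the deadenylase complex that shortens messenger RNA tails, Aimp2 (r = 0.998), a scaffold of aminoacyl-tRNA synthetases, and Aggf1 (r = 0.998). Trim71 was most like Nmd3 (r = 0.998), an export adaptor of the large ribosomal subunit, Dph2 (r = 0.998) and the pluripotency factor Zscan10 (r = 0.997). Hmga1 was most like Dph2 (r = 0.998) and Fam169a (r = 0.998), and Igf2bp1 most like the mitochondrial ribosomal protein gene Mrpl22, the polarity gene Llgl2 and Ecd (r = 0.995 to 0.994). For Igf2bp2 they were Kctd15 (r = 0.989), the glutathione transferase Gstm2 (r = 0.975) and B3gntl1 (r = 0.973). Likeness was weaker for Hmga2, led by Zfp346 (r = 0.961), and for Igf2bp3, led by Inava (r = 0.959). Each r is over 8 group means and was picked as among the highest of the genes searched.

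The machinery that makes, destroys and uses let-7 was described by a list of 30 genes, of which 29 were tested. In MEFs against ES cells 8 were higher, 12 lower and 9 not called, with a median difference of -0.18 and a background of 61.0%. Lower in MEFs were the nuclear processing enzyme Drosha (-1.41 ± 0.13, adjusted p = 2.71e-07), the helicase Mov10 (-1.22 ± 0.15), the Dicer partner Tarbp2 (-1.17 ± 0.10), the precursor exporter Xpo5 (-1.06 ± 0.12), the editing enzyme Adar (-0.74 ± 0.13) and the let-7 processing cofactor Khsrp (-0.66 ± 0.13). Higher in MEFs were another Dicer partner, Prkra (0.94 ± 0.10), the poly(A) polymerase Tent2 (0.75 ± 0.11) and Tut4, the uridylating enzyme that works with LIN28, which was at least 1.54-fold higher and undetected in ES cells. Khsrp had the weakest adjusted p among them, 0.000382. Tut4 read near the floor of detection, with means of 5.16 in Actin-GFP MEFs, 5.98 in Pou5f1-GFP MEFs and 4.68 in ES cells.

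Drosha averaged 8.71 in OSCE #8, 8.43 in OSCE #13, 9.22 in OSE #T8, 9.45 in OSE #T9 and 8.72 in OSCK, against 7.64 in Actin-GFP MEFs and 7.92 in Pou5f1-GFP MEFs, and 9.19 in ES cells. All lines were thus above both MEF types. In the 5 lines against ES cells 1 of the 29 genes was higher, 2 were lower and 26 were not called, against 22.0% of all genes called. OSCE #8 had 4 higher and 4 lower, where 24.2% of all genes were called, among them Lin28b, Mov10 (-1.22 ± 0.18, adjusted p = 0.000117), Tnrc6b, a scaffold of the silencing complex (-0.87 ± 0.15, adjusted p = 0.000593), and Ran, which powers nuclear export (0.80 ± 0.27, adjusted p = 0.0417). Tnrc6b and Ran read near the floor of detection. Tnrc6b averaged 5.00 in OSCE #8, detected on 1 of 2 arrays, and 5.875 in ES cells, and Ran averaged 6.21 and 5.41. Adar was lower in OSCK by -1.21 ± 0.15 (adjusted p = 5.23e-05).

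**Figure D5:**
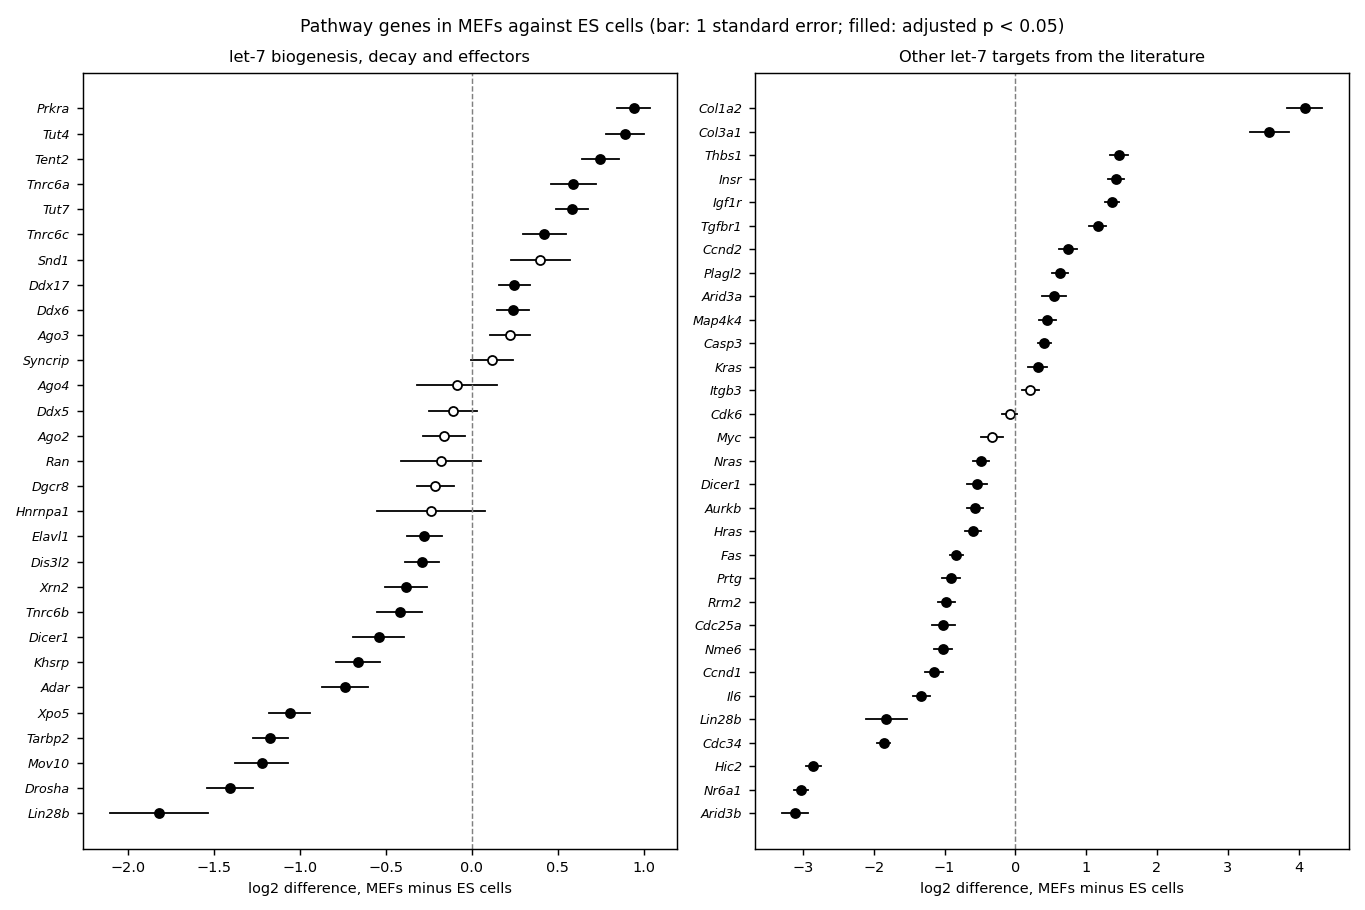
Log2 difference in MEFs minus ES cells (horizontal axis) for the 29 tested genes that make, destroy or use let-7 (left) and the 31 tested genes of a list of other let-7 targets (right), with bars of 1 standard error. Filled points have an adjusted p under 0.05. The targets run from -3.11 (Arid3b) to 4.08 (Col1a2), and Lin28b and Dicer1 stand in both lists.

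Other genes described as let-7 targets went both ways. Of 37 listed, 31 were tested, and in MEFs against ES cells 12 were higher, 16 lower and 3 not called, with a median of -0.49, where 30.7% of all genes were higher and 30.3% lower. The DNA-binding protein Arid3b (-3.11 ± 0.18), the orphan nuclear receptor Nr6a1 (-3.03 ± 0.10), the repressor Hic2 (-2.86 ± 0.11) and the ubiquitin-conjugating enzyme Cdc34 (-1.86 ± 0.09) were lower in MEFs, all with an adjusted p of 1.50e-09 or less. The collagen genes Col1a2 (4.08 ± 0.25) and Col3a1 (3.58 ± 0.27), which are also in the fibroblast marker list, the matrix protein Thbs1 (1.46 ± 0.13) and the insulin and IGF receptors Insr (1.42 ± 0.11) and Igf1r (1.36 ± 0.10) were higher, all with an adjusted p of 1.16e-07 or less.

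Arid3b averaged 9.19 in OSCE #8, 8.51 in OSCE #13, 8.46 in OSE #T8, 8.09 in OSE #T9 and 8.12 in OSCK, against 4.89 in Actin-GFP MEFs, 5.15 in Pou5f1-GFP MEFs and 8.13 in ES cells. Against ES cells, the 5 lines had 6 of the 31 targets higher, 4 lower and 21 not called (22.0% of all genes called). OSCE #8 had 8 higher and 4 lower (24.2% of all genes called), led by Prtg, a receptor of early neural and mesodermal tissue, which averaged 9.12 in OSCE #8 and 5.83 in ES cells (3.29 ± 0.14, adjusted p = 3.77e-10). Prtg averaged 5.95 to 7.57 in the other 4 lines. Macrophage marker signal was 1888 and 1914 in OSCE #8 and 726 and 763 in ES cells. Of 7 macrophage markers 6 were called higher and 1, Cd68, lower (7.78 in OSCE #8 against 8.81 in ES cells). Of 4 primitive endoderm markers tested, 3 were called higher there and 1 was not called. Their part in these differences was not tested.

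Among RNAs that Igf2bp proteins or Lin28 are known to bind, 4 of 8 were higher in MEFs than in ES cells, 2 lower and 2 not called, where 61.0% of all genes were called. The imprinted RNAs H19 (5.68 ± 0.17, adjusted p = 5.63e-13) and Igf2 (3.22 ± 0.10, adjusted p = 7.11e-13) were higher with Igf1r and Actb, and the cyclin Ccnb1 (-1.53 ± 0.15) and the kinase Cdk1 (-0.56 ± 0.11) were lower. In the lines H19 was highest in OSCE #13, 2.24 ± 0.19 above ES cells (adjusted p = 8.88e-07), and Igf2 in OSCK, 0.61 ± 0.11 above (adjusted p = 0.00126). Cd44 was lower in OSE #T8 (-1.55 ± 0.15, adjusted p = 3.13e-06). Of 7 tested relatives of the members' families, 2 were higher in MEFs than in ES cells, 1 lower and 4 not called, against the same 61.0%. The Trim71 relative Trim2 was lower (-1.09 ± 0.14) and Trim3 higher (0.76 ± 0.13), with an adjusted p of 0.000124 or less.

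Promoter windows, 250 bases before to 50 after the start, were in the RefSeq table (GRCm38.p6) for 6 of the 7 members, with 7 windows in all. Shown are those of Lin28a, Trim71 and Hmga1, which were lower together in MEFs, and of Igf2bp3, which was not. They are given 5′ to 3′ on the strand of the gene, with motif matches in capitals. The windows are chr4:134018767-134019066 (minus strand), chr9:114564320-114564619 (minus), chr17:27556324-27556623 (plus) and chr6:49214905-49215204 (minus).
Lin28a: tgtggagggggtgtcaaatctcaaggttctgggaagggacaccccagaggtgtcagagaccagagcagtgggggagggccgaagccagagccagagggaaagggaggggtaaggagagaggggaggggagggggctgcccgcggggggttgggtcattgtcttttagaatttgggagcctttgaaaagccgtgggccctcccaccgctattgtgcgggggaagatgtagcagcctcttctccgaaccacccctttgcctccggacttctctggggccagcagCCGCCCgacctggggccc
Trim71: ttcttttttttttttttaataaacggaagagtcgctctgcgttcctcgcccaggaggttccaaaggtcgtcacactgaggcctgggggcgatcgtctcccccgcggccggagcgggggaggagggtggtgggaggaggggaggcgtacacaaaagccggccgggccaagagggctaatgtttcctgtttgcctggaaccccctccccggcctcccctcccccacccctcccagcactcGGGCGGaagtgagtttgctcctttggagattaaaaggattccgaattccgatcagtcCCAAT
Hmga1: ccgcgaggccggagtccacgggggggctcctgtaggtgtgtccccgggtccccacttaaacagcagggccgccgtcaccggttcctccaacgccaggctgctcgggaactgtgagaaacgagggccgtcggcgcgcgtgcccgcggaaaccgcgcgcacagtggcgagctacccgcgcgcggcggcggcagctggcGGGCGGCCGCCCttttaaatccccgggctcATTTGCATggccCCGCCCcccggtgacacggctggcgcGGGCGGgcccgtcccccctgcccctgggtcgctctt
Igf2bp3: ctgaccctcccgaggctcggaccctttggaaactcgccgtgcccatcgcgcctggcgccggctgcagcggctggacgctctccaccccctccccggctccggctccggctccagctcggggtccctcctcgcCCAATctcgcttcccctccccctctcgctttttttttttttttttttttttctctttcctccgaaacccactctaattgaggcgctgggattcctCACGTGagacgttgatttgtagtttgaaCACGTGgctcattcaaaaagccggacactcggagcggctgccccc

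The motifs searched on both strands were AAGGTCA (estrogen-related receptors), ATGCAAAT (octamer), ACAAAG (SOX), CACGTG (E-box), GGGCGG (GC box), TATAAA and CCAAT. The octamer was found in the Hmga1 window, on the minus strand from 24 bases before the start, as in 1.74% of 32851 windows. CACGTG was found at 2 places in the Igf2bp3 window, against 7.15% of windows with at least 1. AAGGTCA was in none of the members' 7 windows and in 4.72% of all. GGGCGG was in the windows of Lin28a, Trim71, Hmga1, Hmga2 and Igf2bp2, and in 35.7% of all. The members' windows held 57.7% to 76.7% G and C bases and 10 to 47 CpG dinucleotides, against medians of 52.7% and 7 over all windows. A match is only a run of letters, and none was tested for binding.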

How the data were processed

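RNA (500 ng) was hybridized to Illumina MouseWG-6 arrays, and the deposited table holds 1 raw signal intensity per probe and array, a detection score (1 minus the detection p) and bead counts, from BeadStudio 3.2.6 with no normalization, per the file headers. The authors' normalized table was left aside, as no column ties its probes to this one. Intensities were background-corrected by normexp from detection p-values with an offset of 16, quantile-normalized and put on the log2 scale with limma 3.58.1 in R 4.3.3. Target names were matched to current symbols, 16079 directly and 6654 by synonym, with 11592 of 34325 kept as given. The brightest probe stood for a gene, and genes detected (p under 0.01) on at least 2 arrays were tested. One model with 8 group means over 16 arrays gave all comparisons, with Benjamini-Hochberg adjustment per comparison and an adjusted p under 0.05 as the threshold. Standard errors are limma's, from the spread between arrays of a group, and the number of arrays limits the precision. Those of pooled lines leave out differences between lines. The members and the gene lists were chosen with earlier results of these data known. Named genes of a list were those with the largest called changes, and 3 most alike genes per member were chosen by Pearson's r over group means, of which 1 is not reported here. Offset, background correction, scaling, filter, probe choice, slide block, replicate block and left-out arrays were varied. The slide block took out the difference between slides within each set of slides, and not that between the sets. The 2 lines in OSE minus OSCE are OSE #T8 and OSE #T9, against OSCE #8 and OSCE #13.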

Additional observations from a re-analysis of the deposited data

Results flagged for a closer look

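Pairs of iPS lines differed by limma's test in 4 of the 7 members, and chance can pass some of 70 tests at this threshold. Per pair of lines, 11.7% to 22.4% of all genes were called, so such calls are not particular to the members. Lin28a was higher in OSCE #8 than in OSCE #13 by 0.82 (adjusted p = 0.00144) and than in OSE #T9 by 1.04 (adjusted p = 0.000183), and higher in OSE #T8 than in OSE #T9 by 0.85 (adjusted p = 0.00194). In OSCE #13 it was lower than in OSE #T8 (-0.63, adjusted p = 0.00971) and OSCK (-0.61, adjusted p = 0.0165), and in OSE #T9 lower than in OSCK (-0.83, adjusted p = 0.00176). These values are for its brightest probe.

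Igf2bp2 was lower in OSCE #8 than in OSCK (-0.83, adjusted p = 0.000106), OSCE #13 (-0.73, adjusted p = 0.000351), OSE #T8 (-0.41, adjusted p = 0.0174) and OSE #T9 (-0.35, adjusted p = 0.0429). It was lower than in OSCK also in OSE #T8 (-0.42, adjusted p = 0.0234) and OSE #T9 (-0.48, adjusted p = 0.00952), and higher in OSCE #13 than in OSE #T9 (0.38, adjusted p = 0.0307). Hmga2 was higher in OSCE #8 than in OSE #T8 by 0.66 (adjusted p = 0.0102), and Igf2bp1 higher in OSE #T8 than in OSCK by 0.51 (adjusted p = 0.0494). Of these pairs, OSCE #8 with OSCK, OSE #T8 with OSE #T9 and OSCE #13 with the OSE lines shared slides, and in the others slide and line cannot be told apart.

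The second OSCE #13 array read 11.89 for Hmga1, far below the other line arrays. Of 14 sets of arrays looked at, this was the 1 that stood out, by a rule set to pick about 1 in 20 by chance.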

How the results depend on the processing

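Over the settings varied, 1867 of 1953 values stayed on their side of the threshold (29 of them changed sign with no call in either fit), 37 lost a call, 48 gained one and 1 reversed. Of 84 values added after seeing the data (a whole line left out, or 1 MEF type alone), 78 stayed (3 with such a sign change), 3 lost and 3 gained a call. Lin28a in the 5 lines minus ES cells reversed to 0.25 with the mean of all probes. Members called in the 5 lines against ES cells numbered 1 (3 as reported) with no filter or with every probe tested, and 0 with 1 mean per line. That last fit called 115 genes there (3447 as reported), 5011 in MEFs against ES cells (9539 as reported) and 3 in OSE against OSCE lines (3642 as reported). Members called in OSE against OSCE lines went to 1 with an offset of 50, no background correction or the mean of probes, 2 with a slide block and 3 with a replicate block. OSCK against ES cells had 2 with the mean of probes, the slide block or the replicate block, and OSCE #13 against ES cells 2 with either block. Deviations of samples with the same replicate number correlated at r from 0.0984 to 0.430, over 0.1 in 27 of 28 pairs of groups, short of the rule that every pair exceed it, and nothing in the labels says a number marks a shared culture or day. Under the replicate block, the pairing gave adjusted p-values of 0.0498 for Lin28a in OSCE #8, 0.0263 for Igf2bp1 in OSCK, 0.0252 for Hmga2 in OSCE #13 and 0.029 for Igf2bp2 in OSE #T9, all against ES cells, and 0.04 for Hmga2 in the lines against MEFs. The cause of these changes was not tested.

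Leaving out 1 array at a time gave 6 to 7 members called in MEFs against ES cells, 5 to 6 in lines against MEFs, 1 to 3 in lines against ES cells, 0 to 1 in OSCK, 2 to 4 in OSCE #8, 0 to 3 in OSCE #13, 2 in OSE #T8 and 0 to 2 in OSE #T9 (each against ES cells), 0 to 3 in OSE against OSCE lines, 1 in OSCE #8 against OSCK and 0 between MEF types. Genes called ranged from 8178 to 9784 in MEFs against ES cells, 10173 to 11067 in lines against MEFs, 2001 to 3852 in lines against ES cells, 1738 to 3026 in OSCK, 2607 to 4192 in OSCE #8, 2025 to 3435 in OSCE #13, 2173 to 3643 in OSE #T8, 1980 to 3522 in OSE #T9, 2788 to 3656 in OSE against OSCE lines, 1729 to 3099 in OSCE #8 against OSCK and 1029 to 2061 between MEF types. A group left with 1 array was assumed to vary like the others. The alternative with the authors' normalized table was not run.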
